A study of Mus musculus with 73 samples.

Results

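The interferon-stimulated genes described here are 44 mouse genes listed by name as members of the transcriptional response to interferon. Of these, 42 were found by name in each of the 3 deposited expression tables, which list 39179 genes each. At least 1 RPKM (reads scaled to gene length and library size) in at least 2 libraries of a table was reached by 41 members at 4 months and by 42 members in each of the 8-month tables, beside 13024, 12758 and 13419 genes of any kind. Ifit3b and Ifi207 were not present under these names, and Oas3 fell short of the threshold at 4 months. Microglia, the resident macrophages of the brain, had been sorted from C57BL/6 mouse brains by their surface CD11b and CD45, and their polyadenylated RNA was sequenced in 73 libraries. At 4 months the libraries came from 5xFAD;CD33-/-;TREM2-/- mice (n = 2), 5xFAD;CD33-/- mice (n = 4), 5xFAD;TREM2-/- mice (n = 4), 5xFAD mice (n = 9) and WT mice (n = 7). At 8 months one table held 5xFAD;CD33-/- mice (n = 12) and 5xFAD mice (n = 11), and the other held 5xFAD;TREM2-/- mice (n = 8), 5xFAD mice (n = 10) and WT mice (n = 6). The 5xFAD mouse carries human transgenes, APP among them, with familial Alzheimer's disease mutations under the neuronal Thy1 promoter and forms amyloid plaques. Every knockout group also carried 5xFAD, so loss of CD33 or TREM2 was not measured without the transgenes. The labels do not say whether a library is 1 animal, and p-values measure the spread between libraries. In the 8-month table with TREM2-/- mice some titles hold a pair of numbers (WT2_3, TRKO1_2 and TRKO4_5). Number 5 also stands in another title of the 5xFAD;TREM2-/- group (TRKO5), so these libraries may not be independent.

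Interferons are secreted cytokines of antiviral defence. Type I interferons bind the receptor pair IFNAR1 and IFNAR2, whose kinases JAK1 and TYK2 activate STAT proteins, STAT2 among them, which join IRF9 in a complex that binds the interferon-stimulated response element in promoters. Interferon gamma has a receptor of its own and acts through a different element, the gamma-activated site. The induced genes block viral replication, sense foreign or misplaced nucleic acids, amplify or restrain the response itself, and raise antigen presentation. In the brain, microglia are among the cells that express them, and a subset of microglia with high interferon-stimulated gene expression is known from ageing and from amyloid models. TREM2 is an activating lipid and lipoprotein receptor of microglia, and CD33 is an inhibitory sialic acid receptor of myeloid cells.

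The promoters of members that stand for the set are shown first, because the response element is the sequence that these genes are known to share. RefSeq promoter windows of 300 bases around the annotated start were at hand for 32 of the 42 members. The core of the element was searched as GAAANNGAAA, or TTTCNNTTTC on the other strand, with overlapping matches counted. Some members had more than 1 window, and a gene was counted if any of its windows held a match. The core occurred in 19 of the 32 members (59.4%), beside 3.99% of all 27025 genes with a promoter window. Among 8704 other genes tested at 4 months the share was 3.49%. The gamma-activated site, searched as TTCNNNGAA, which reads the same on both strands, occurred in 9 of the 32 (28.1%), beside 9.55% of all genes with a promoter window. By role, the response element core occurred in 10 of 15 antiviral effectors, 2 of 2 nucleic acid sensors, 1 of 4 transcription factors, 1 of 4 regulators, 2 of 3 Schlafen genes, 3 of 3 guanylate-binding proteins and not in Ifi30. The 13 members without these letters in any window were Cmpk2, Ifi30, Ifi35, Ifi44, Ifit2, Irf1, Irf7, Irf9, Isg20, Oasl1, Oasl2, Slfn2 and Xaf1. A match describes letters in this window and does not show a bound site.

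The promoters are printed, 5′ to 3′ on the strand of the gene as in RefSeq GRCm38.p6, with matches to the response element core in capitals.
Isg15: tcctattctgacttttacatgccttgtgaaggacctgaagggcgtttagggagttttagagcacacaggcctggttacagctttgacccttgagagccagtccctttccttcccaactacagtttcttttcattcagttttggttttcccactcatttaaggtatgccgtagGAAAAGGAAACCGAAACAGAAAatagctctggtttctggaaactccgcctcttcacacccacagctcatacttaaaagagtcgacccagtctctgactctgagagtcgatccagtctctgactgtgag
Ifit3: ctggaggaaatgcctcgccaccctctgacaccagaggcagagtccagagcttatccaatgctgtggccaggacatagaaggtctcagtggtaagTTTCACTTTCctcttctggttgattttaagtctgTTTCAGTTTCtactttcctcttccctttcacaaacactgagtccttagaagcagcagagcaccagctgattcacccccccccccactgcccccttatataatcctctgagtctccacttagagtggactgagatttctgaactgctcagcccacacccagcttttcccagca
Oas1a: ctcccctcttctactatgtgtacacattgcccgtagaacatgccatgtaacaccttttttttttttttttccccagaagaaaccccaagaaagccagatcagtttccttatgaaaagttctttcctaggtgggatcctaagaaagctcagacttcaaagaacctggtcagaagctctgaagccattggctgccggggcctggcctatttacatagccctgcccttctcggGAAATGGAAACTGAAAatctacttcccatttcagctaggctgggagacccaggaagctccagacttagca
Ifitm3: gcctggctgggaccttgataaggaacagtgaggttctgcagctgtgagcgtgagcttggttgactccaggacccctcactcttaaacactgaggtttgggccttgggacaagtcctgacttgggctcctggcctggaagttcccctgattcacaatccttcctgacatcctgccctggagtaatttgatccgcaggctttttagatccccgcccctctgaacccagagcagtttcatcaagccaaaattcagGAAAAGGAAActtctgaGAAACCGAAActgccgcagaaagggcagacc
Gbp7: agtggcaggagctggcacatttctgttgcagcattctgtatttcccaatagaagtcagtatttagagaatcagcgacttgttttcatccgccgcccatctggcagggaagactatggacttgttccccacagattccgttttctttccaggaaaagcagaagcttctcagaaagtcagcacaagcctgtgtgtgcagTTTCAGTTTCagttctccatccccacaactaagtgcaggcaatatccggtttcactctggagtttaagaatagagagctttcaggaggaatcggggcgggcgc

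In Isg15 (chr4:156200769-156201068, GRCm38.p6, minus strand) the 3 matches overlap and begin -78, -72 and -66 bases from the start. In Ifit3 (chr19:34583279-34583578, plus strand) 2 matches on the opposite strand begin at -156 and -122. In Oas1a (chr5:120907476-120907775, minus strand) 2 overlapping matches begin at -20 and -14, and in Ifitm3 (chr7:141010695-141010994, minus strand) 2 matches lie just downstream, at 2 and 19. Gbp7 (chr3:142530086-142530385, plus strand) has 1 match at -53 and is shown because it was the member that was lower in 5xFAD than in WT at both ages.

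Sequencing depth was 21.19 to 79.65 M reads per library (median 35.48 M), and RPKM values were whole multiples of 1 read throughout. Trem2 had 26.8 and 33.2 RPKM in 5xFAD;CD33-/-;TREM2-/- libraries and 29.2 to 36.3 RPKM in 5xFAD;TREM2-/- libraries at 4 months, against 650 to 875 RPKM in 5xFAD, and 13.7 to 22.4 RPKM in 5xFAD;TREM2-/- libraries at 8 months, against 628 to 968 RPKM in 5xFAD. Cd33 was at most 0.605 RPKM in the libraries labelled CD33-/- apart from a pair: the 4-month library labelled 5xFAD;CD33-/-;TREM2-/- replicate 1 had 14.02 RPKM and the 8-month library labelled 5xFAD;CD33-/- replicate 7 had 19.1 RPKM, against 102 to 152 RPKM in 5xFAD libraries of both ages. These values go against the labels of these libraries, and the counts that rest on them are given with and without them. Summed levels of 8 endothelial marker genes moved with genotype and are given beside the comparisons they move with. Of 5 monocyte markers found, Vcan was below 1 RPKM in every group, and the summed level of the 5 was at most 29.4 RPKM in any library. Neutrophil markers were higher and varied widely between libraries. The 6 summed to 43.8 to 648 RPKM in 5xFAD libraries at 4 months. Their highest sum in any library was 2581 RPKM, in 5xFAD;CD33-/- at 8 months. None differed at an adjusted p under 0.05 in any comparison below. The part of neutrophils in the member values was not tested.

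The first question was how amyloid pathology changes the members. At 4 months, 36 of the 41 members rose in 5xFAD relative to WT microglia and 1 fell, beside 8.95% of all genes that were higher and 7.79% that were lower (limma on log2(RPKM + 0.5), adjusted over all 13024 genes, adjusted p under 0.05). The median change of the members was 0.88 on the log2 scale, beside -0.02 over all genes, and 16 members changed by at least 1. The levels of 18 members did not overlap between 5xFAD and WT libraries, beside 3.94% of all genes tested. All 17 antiviral effectors tested were higher (median change 1.01), as were all 5 nucleic acid sensors (median 0.69), 3 of the 4 transcription factors, all 8 regulators and 2 of the 3 Schlafen genes. Only Ifi30, Gbp3, Slfn8 and Irf1 did not pass the test in either direction. In bulk RNA, more cells with a high level and more RNA per cell cannot be told apart.

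Ifi27l2a, which encodes a small interferon-induced membrane protein, was the member with the largest change. It ranged over 48.6 to 176 RPKM (median 102) in 5xFAD libraries, against 8.70 to 19.6 RPKM (median 12.9) in WT libraries. No WT library reached the lowest 5xFAD library, and the change was 2.68 ± 0.27 on the log2 scale (SE; adjusted p = 1.52e-07). Ifi204, a member of the PYHIN family of DNA-binding proteins, followed with 4.94 to 14.8 RPKM in 5xFAD (median 8.16), against 1.31 to 2.32 RPKM in WT (median 2.02), a change of 1.91 ± 0.19 (adjusted p = 1.03e-07).

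Among the antiviral effectors, the oligoadenylate synthases make the second messenger that activates RNase L. Oas1a had 5.28 to 13.5 RPKM in 5xFAD (median 8.998), against 1.496 to 3.42 RPKM in WT (median 2.68), a change of 1.63 ± 0.18 (adjusted p = 7e-07). Oasl2, an oligoadenylate synthase-like protein, had 4.57 to 15.7 RPKM in 5xFAD (median 10.1), against 1.29 to 2.77 RPKM in WT (median 2.44), and rose by 1.73 ± 0.23. Neither gene's groups overlapped. Ifit3, of a family that binds viral RNA and its translation machinery, had 5.61 to 15.1 RPKM in 5xFAD (median 13.1), against 2.17 to 5.23 RPKM in WT (median 3.77), and rose by 1.49 ± 0.19 (adjusted p = 4.57e-06). Ifit2 of the same family rose by 1.65 ± 0.16, with 9 of 9 5xFAD libraries above the WT mean for both genes.

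Isg15, a ubiquitin-like protein that is conjugated to other proteins, had 7.26 to 24.6 RPKM in 5xFAD (median 16.6), against 4.39 to 8.85 RPKM in WT (median 5.28). The lowest 5xFAD library lay below the highest WT library, and the change was 1.37 ± 0.21 (adjusted p = 6.51e-05). Rsad2 (viperin, a radical SAM enzyme that makes a chain-terminating nucleotide) had 1.79 to 5.00 RPKM in 5xFAD, against 0.936 to 1.73 RPKM in WT, and rose by 1.19 ± 0.17. Mx1, a GTPase whose allele in C57BL/6 mice does not make a working protein, had 1.68 to 3.76 RPKM in 5xFAD, against 0.827 to 1.70 RPKM in WT, a change of 1.01 ± 0.14. Its lowest 5xFAD library was just under the highest WT library, whereas the Rsad2 ranges were separate. The membrane-associated restriction factors were the most abundant effectors. Bst2 (tetherin) had 111 to 228 RPKM in 5xFAD, against 79.3 to 106 RPKM in WT, and Ifitm3 had 41.6 to 142 RPKM in 5xFAD, against 23.9 to 42.7 RPKM in WT, changes of 0.79 ± 0.12 and 1.24 ± 0.21.

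Irf7, the factor that amplifies type I interferon production, had 5.81 to 17.02 RPKM in 5xFAD (median 10.8), against 2.69 to 4.78 RPKM in WT (median 3.69), a change of 1.36 ± 0.19 (adjusted p = 1.65e-05) without overlap. Irf9 and Stat2, subunits of the complex that binds the response element, rose by 0.30 ± 0.06 and 0.45 ± 0.09. Irf1 had 24.4 to 51.1 RPKM in 5xFAD, against 25.3 to 51.0 RPKM in WT, and its change of 0.24 ± 0.14 did not pass the test (adjusted p = 0.242). Zbp1, a sensor of Z-form nucleic acid, had 1.47 to 5.90 RPKM in 5xFAD, against 0.592 to 1.02 RPKM in WT, and rose by 1.47 ± 0.21. The cytosolic RNA sensors moved by less: Ifih1 (MDA5) rose by 0.31 ± 0.08, Ddx58 (RIG-I) by 0.20 ± 0.05 and Dhx58 (LGP2) by 0.69 ± 0.12. Usp18, the protease that removes ISG15 and restrains signalling at IFNAR2, had 6.89 to 17.99 RPKM in 5xFAD, against 2.23 to 3.90 RPKM in WT, a change of 1.63 ± 0.19.

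The guanylate-binding proteins, GTPases that attack the vacuoles of intracellular pathogens, did not share this direction. Gbp2 rose by 0.51 ± 0.15, with 5.52 to 14.04 RPKM in 5xFAD, against 3.97 to 6.45 RPKM in WT. Gbp7 fell, with 5.71 to 8.01 RPKM in 5xFAD (median 6.64), against 7.33 to 10.5 RPKM in WT (median 8.94), a change of -0.34 ± 0.08 (adjusted p = 0.00354). Its ranges overlapped, and 9 of 9 5xFAD libraries lay below the WT mean. Gbp3 changed by 0.06 ± 0.11. Ifi30, the lysosomal thiol reductase of antigen processing, had 142 to 175 RPKM in 5xFAD, against 151 to 175 RPKM in WT, a change of -0.06 ± 0.06. Several members have close relatives that can share reads (Ifit3 with Ifit3b, Oas1a with Oas1g, Ifi204 with Ifi207, and the Gbp and Schlafen genes among themselves), so the split between relatives is uncertain.

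**Figure D1:**
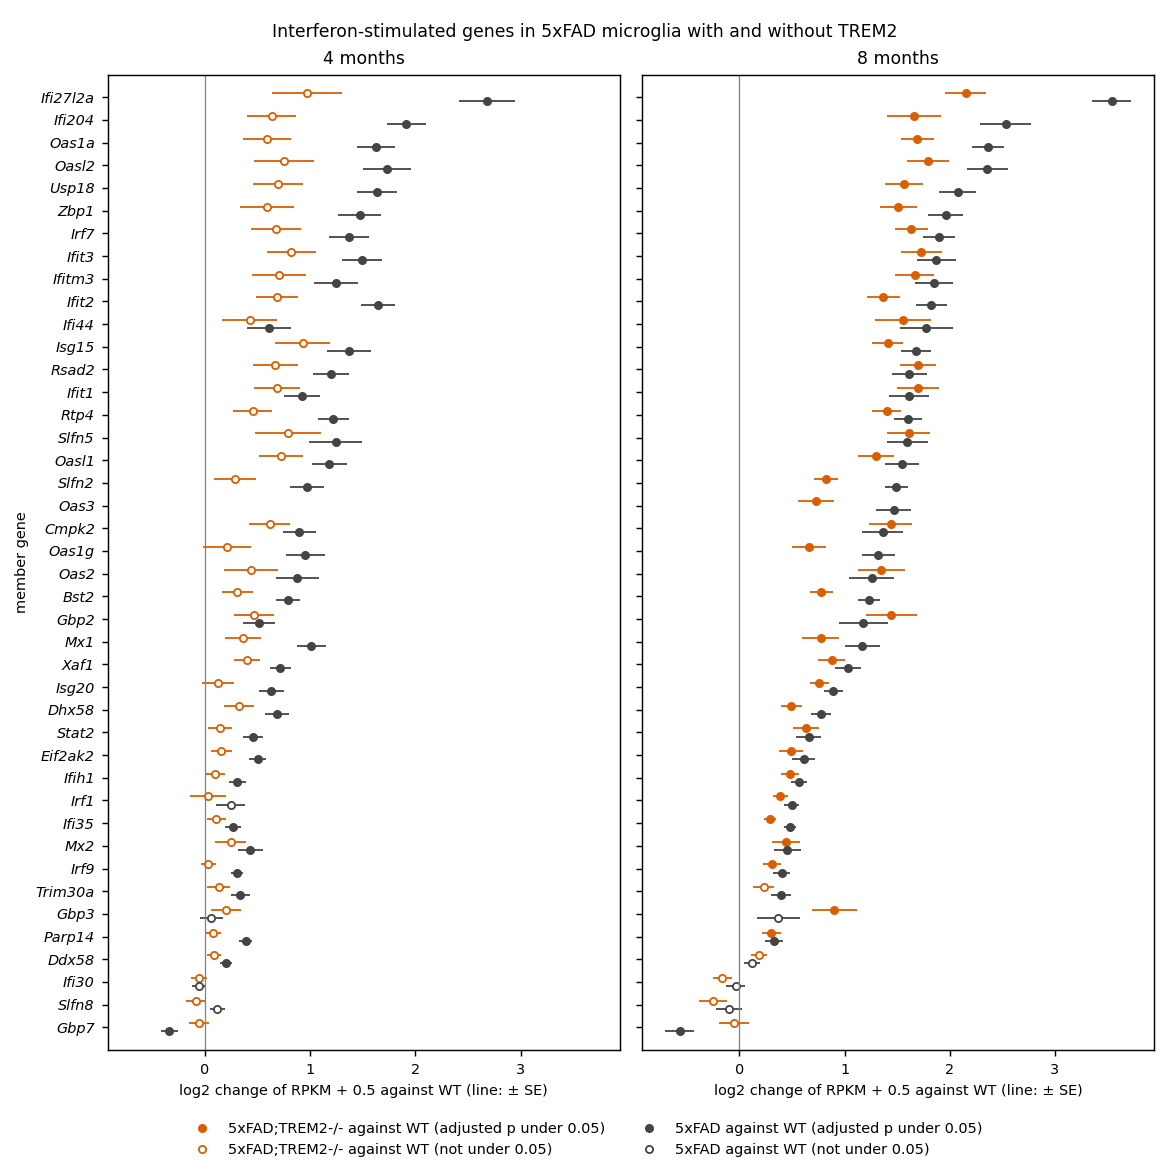
Log2 change of RPKM + 0.5 of each member in 5xFAD;TREM2-/- and in 5xFAD microglia, each against WT, at 4 and 8 months (horizontal axis), with lines of ± SE and filled points where the adjusted p was under 0.05. In 5xFAD, Ifi27l2a has the largest change at both ages (2.68 and 3.54) and Gbp7 is below 0 at both (-0.34 and -0.57).

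At 8 months, 37 of the 42 members rose in 5xFAD relative to WT and 1 fell, beside 27.8% of all genes that were higher and 29.1% that were lower. The median change was 1.29, beside -0.01 over all genes. The members higher at both ages numbered 35 of the 36 called at 4 months and of the 37 called at 8 months. Ddx58 was called at 4 months alone, and Irf1 and Oas3 at 8 months alone, Oas3 not having been tested at 4 months. The 34 members whose ranges did not overlap, beside 21.6% of all genes tested, included Ifi27l2a, with 110 to 224 RPKM in 5xFAD (median 146), against 9.59 to 16.9 RPKM in WT (median 13.2), a change of 3.54 ± 0.18 (adjusted p = 1.59e-13). The tables of the ages were made separately, and the sizes of the changes at 4 and 8 months were not tested against each other.

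All 18 antiviral effectors were higher at 8 months (median change 1.51). Oas1a had 10.8 to 18.4 RPKM in 5xFAD (median 14.6), against 1.44 to 3.23 RPKM in WT (median 2.50), a change of 2.37 ± 0.15 (adjusted p = 8.36e-12). Oasl2 had 13.6 to 30.8 RPKM in 5xFAD, against 2.00 to 6.33 RPKM in WT, and Ifit3 had 13.2 to 28.1 RPKM in 5xFAD, against 2.93 to 8.03 RPKM in WT, changes of 2.36 ± 0.19 and 1.87 ± 0.19. The ranges were separate for each of these genes. Isg15 had 20.4 to 41.6 RPKM in 5xFAD, against 6.40 to 11.1 RPKM in WT, and Rsad2 had 5.61 to 10.4 RPKM in 5xFAD, against 1.70 to 2.93 RPKM in WT. Mx1 had 1.82 to 4.09 RPKM in 5xFAD, against 0.753 to 1.37 RPKM in WT. These 3 genes rose by 1.68 ± 0.14, 1.62 ± 0.16 and 1.17 ± 0.17. The restriction factors Bst2, with 152 to 233 RPKM in 5xFAD, against 72.0 to 100.2 RPKM in WT, and Ifitm3, with 119 to 260 RPKM in 5xFAD, against 31.8 to 67.2 RPKM in WT, rose by 1.24 ± 0.11 and 1.85 ± 0.18.

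All 4 transcription factors rose at 8 months. Irf7 had 13.3 to 27.8 RPKM in 5xFAD (median 17.5), against 3.02 to 5.79 RPKM in WT (median 4.66), a change of 1.90 ± 0.15. Irf1, which also serves interferon gamma signalling, had 45.7 to 58.5 RPKM in 5xFAD, against 31.7 to 39.9 RPKM in WT, a change of 0.50 ± 0.07 (adjusted p = 2.31e-06) without overlap. Of the sensors, Zbp1 had 3.28 to 7.88 RPKM in 5xFAD, against 0.763 to 1.25 RPKM in WT, and rose by 1.96 ± 0.17. Ifih1 had 4.96 to 7.13 RPKM in 5xFAD, against 3.21 to 4.05 RPKM in WT, and rose by 0.57 ± 0.08, while Ddx58 did not pass the test (0.12 ± 0.08, adjusted p = 0.176). Ifi204 and Usp18 rose by 2.53 ± 0.24 and 2.08 ± 0.17. Usp18 had 14.04 to 27.9 RPKM in 5xFAD, against 2.95 to 5.73 RPKM in WT.

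Beside Ddx58, the members that did not rise at 8 months were Gbp7, Gbp3, Slfn8 and Ifi30. Gbp7 fell without overlap, with 5.04 to 8.59 RPKM in 5xFAD (median 6.75), against 8.92 to 11.02 RPKM in WT (median 10.1), a change of -0.57 ± 0.14 (adjusted p = 0.00119). Gbp2 rose, with 11.6 to 30.2 RPKM in 5xFAD, against 6.19 to 9.70 RPKM in WT, a change of 1.18 ± 0.23. Gbp3 (0.37 ± 0.20), Slfn8 (-0.10 ± 0.12) and Ifi30 (-0.04 ± 0.09, with 135 to 231 RPKM in 5xFAD, against 146 to 193 RPKM in WT) did not pass the test. Slfn2 and Slfn5, relatives of Slfn8 in a family tied to lymphocyte quiescence and interferon responses, rose by 1.49 ± 0.11 and 1.60 ± 0.20.

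Markers of other cells moved with these comparisons. Of all genes, 8.95% were higher and 7.79% lower in 5xFAD at 4 months, and 27.8% and 29.1% at 8 months. All 8 endothelial markers were higher in 5xFAD than in WT libraries at 8 months, with summed levels of 465.7 to 1374 RPKM in 5xFAD (median 1151), against 216 to 576 RPKM in WT (median 311), and 2 of 8 were higher at 4 months, with sums of 148 to 980 RPKM in 5xFAD, against 111 to 232 RPKM in WT. No endothelial marker was at 0. Microglial markers were lower, 8 of 8 at 8 months and 5 of 8 at 4 months. Of 4 plasmacytoid dendritic cell markers, Cox6a2 was higher in 5xFAD at both ages (2.26 ± 0.21 at 4 months and 3.72 ± 0.12 at 8 months) and Tcf4 was lower at both (-0.16 ± 0.04 and -0.24 ± 0.07), while Klk1 was at 0 in 5xFAD and WT libraries of these tables and Ccr9 was below 1 RPKM. The summed level of the 4 was 26.0 to 52.9 RPKM in 5xFAD, against 16.4 to 17.8 RPKM in WT at 4 months, and 52.6 to 91.5 RPKM in 5xFAD, against 16.03 to 19.1 RPKM in WT at 8 months. At 8 months 6 of 6 mural markers were also higher in 5xFAD (sums of 103 to 259.5 RPKM, against 40.3 to 75.6 RPKM in WT), as were 4 of 4 erythrocyte markers tested (sums of 22.8 to 90.4 RPKM, against 14.9 to 29.0 RPKM in WT). Of 8 oligodendrocyte markers 6 were lower at that age (sums of 107 to 202 RPKM in 5xFAD, against 114 to 388 RPKM in WT) and 1 at 4 months. Of 6 astrocyte markers 3 were higher and 1 lower at 8 months, and 1 higher and 1 lower at 4 months. Of 4 monocyte markers tested at 8 months 1 was higher and 1 lower. The monocyte counts are near the shares over all genes, and the astrocyte counts go both ways, so neither is a result about those cells. The part of other cells in the member changes was not tested.

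**Figure D2:**
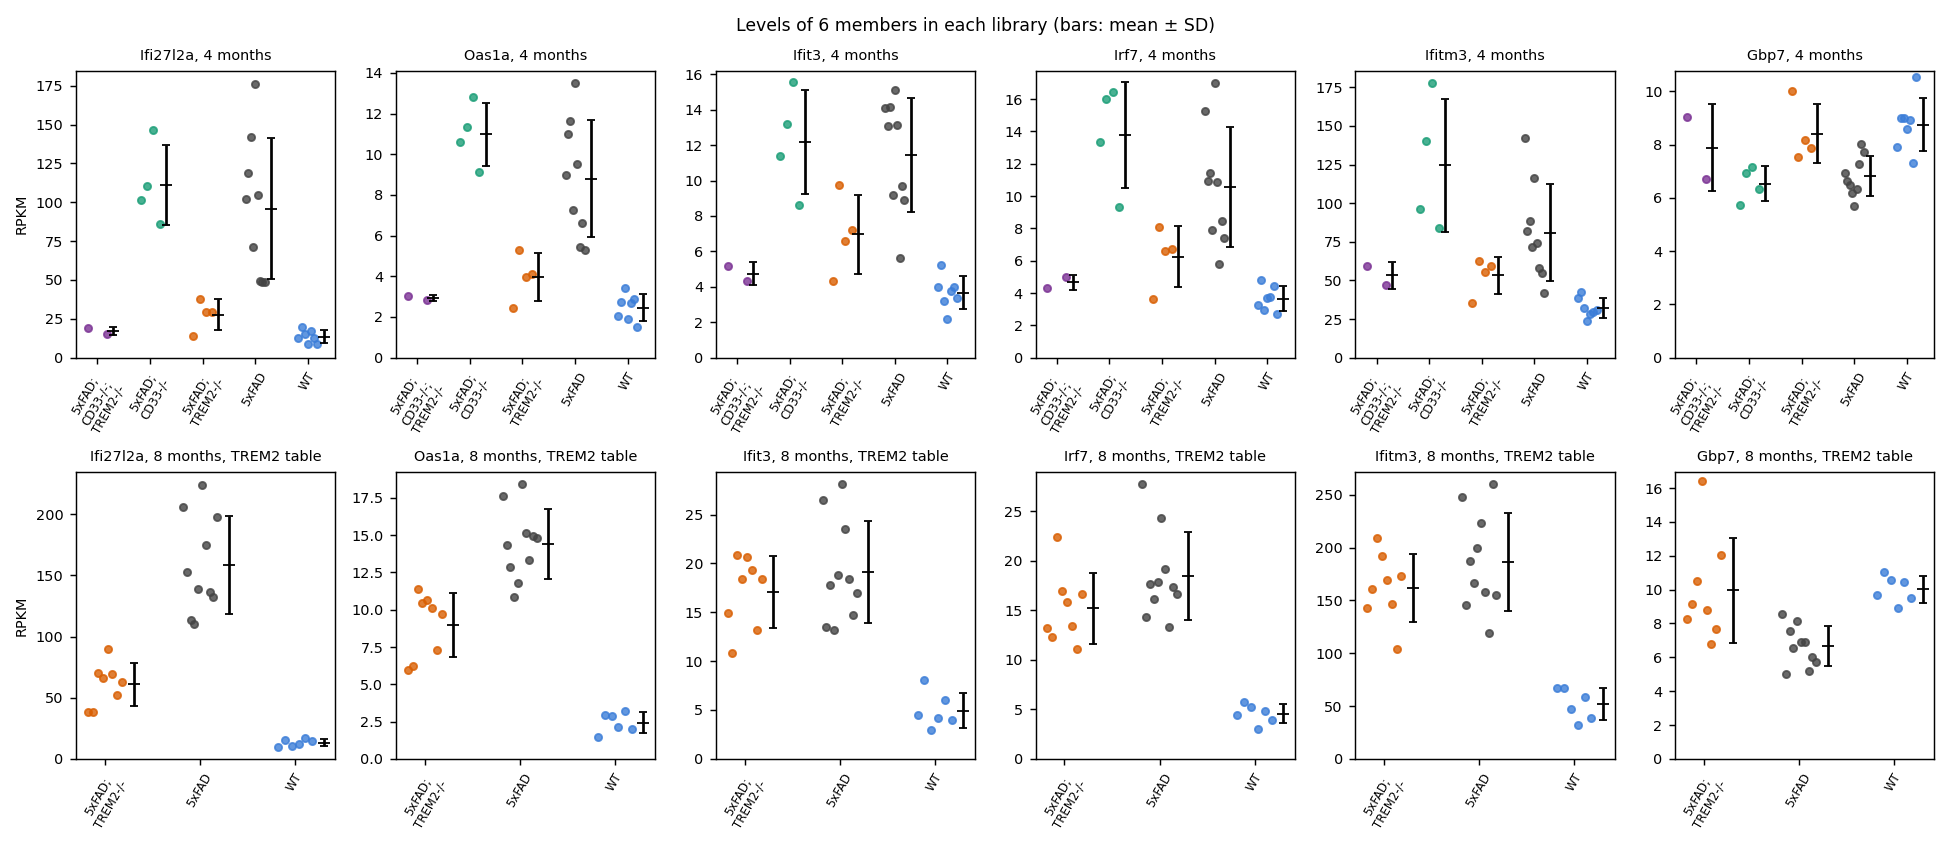
RPKM of Ifi27l2a, Oas1a, Ifit3, Irf7, Ifitm3 and Gbp7 in every library at 4 months and in the 8-month table with TREM2-/- mice (vertical axis, linear from 0), 1 point per library, with bars for the mean ± SD. For Ifi27l2a at 8 months the 5xFAD;TREM2-/- libraries (37.9 to 90.0 RPKM) lie between 5xFAD (110 to 224 RPKM) and WT (9.59 to 16.9 RPKM), and Gbp7 shows the reverse order of 5xFAD and WT.

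Loss of TREM2 in 5xFAD mice was measured at both ages. At 4 months, 9 of the 41 members fell in 5xFAD;TREM2-/- relative to 5xFAD microglia and 0 rose, beside 2.00% of all genes that were lower and 0.392% that were higher (limma; voom on the recovered reads also gave 0 higher). The median change was -0.44, beside 0.02 over all genes, and 27 members had an unadjusted p under 0.05, beside 11.6% of all genes. The 9 were the effectors Oas1a, Ifit2 and Mx1, the sensor Ifi204, the transcription factor Irf9 and the regulators Ifi27l2a, Usp18, Rtp4 and Parp14. The 5xFAD libraries are shared with the comparison against WT, in which all 9 were higher in 5xFAD, so the directions are not independent.

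Ifi27l2a had 13.7, 29.5, 29.6 and 37.7 RPKM in 5xFAD;TREM2-/- libraries at 4 months, against 48.6 to 176 RPKM in 5xFAD (median 102). All 4 knockout libraries lay below every 5xFAD library, and the change was -1.71 ± 0.32 (adjusted p = 0.00224). Ifi204 had 2.67, 3.12, 3.16 and 4.20 RPKM in 5xFAD;TREM2-/- libraries, against 4.94 to 14.8 RPKM in 5xFAD, a change of -1.28 ± 0.22 (adjusted p = 0.00108), also without overlap. Oas1a had 2.45, 3.98, 4.11 and 5.29 RPKM in 5xFAD;TREM2-/- libraries, against 5.28 to 13.5 RPKM in 5xFAD, where the highest knockout library met the lowest 5xFAD library, a change of -1.04 ± 0.21 (adjusted p = 0.00631). Ifit2 changed by -0.96 ± 0.19 (adjusted p = 0.00499) and Usp18 by -0.94 ± 0.23 (adjusted p = 0.0229). Mx1 had 1.24, 1.35, 1.69 and 2.17 RPKM in 5xFAD;TREM2-/- libraries, against 1.68 to 3.76 RPKM in 5xFAD, a change of -0.65 ± 0.17 (adjusted p = 0.033). Rtp4, an interferon-induced chaperone of membrane receptors, fell by 0.77 without overlap. Ranges were apart in 5 of the 41 members, beside 2.05% of all genes tested.

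Other effectors did not pass the test at 4 months. Oasl2 had 2.24, 4.35, 4.42 and 5.89 RPKM in 5xFAD;TREM2-/- libraries, against 4.57 to 15.7 RPKM in 5xFAD (-0.98 ± 0.27, adjusted p = 0.0582). Ifit3 had 4.33, 6.58, 7.20 and 9.76 RPKM in 5xFAD;TREM2-/- libraries, against 5.61 to 15.1 RPKM in 5xFAD (-0.67 ± 0.22, adjusted p = 0.14). Their ranges overlapped. Isg15 (-0.44 ± 0.25), Rsad2 (-0.53 ± 0.20), Bst2 (-0.48 ± 0.14), Ifitm3 (-0.54 ± 0.25), Zbp1 (-0.88 ± 0.25), Irf7 (-0.69 ± 0.23), Irf1 (-0.21 ± 0.17) and Ifih1 (-0.21 ± 0.09) had adjusted p between 0.0589 and 0.741. The smallest changes were in Ifi30 (0.00 ± 0.07), Gbp2 (-0.05 ± 0.18) and Ddx58 (-0.11 ± 0.07). The count of 9 depended on the libraries in the fit. It was 4 without 5xFAD;TREM2-/- replicate 1, 5 without replicate 7 and 14 without replicate 3 of that group, 15 without 5xFAD replicate 13 and 16 without 5xFAD replicate 10 or 11. It was 5 with the prefix of the library title as a term and 3 (Ifi27l2a, Ifi204 and Ifit2) in a fit of these groups alone.

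At 8 months, 13 of the 42 members fell in 5xFAD;TREM2-/- relative to 5xFAD microglia and 1 rose, beside 9.86% of all genes that were lower and 6.61% that were higher. The median change was -0.16, beside 0.02 over all genes. Those that fell were 6 of 18 effectors (Oas1a, Oas1g, Oas3, Oasl2, Ifit2 and Bst2), 3 of 5 sensors (Ifi204, Zbp1 and Dhx58), 3 of 8 regulators (Ifi27l2a, Usp18 and Ifi35) and Slfn2. Ifi204, Ifi27l2a, Ifit2, Oas1a and Usp18 were lower at both ages, 5 of the 9 called at 4 months and of the 13 called at 8 months.

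Ifi27l2a again differed most, with 37.9 to 90.0 RPKM in 5xFAD;TREM2-/- (median 64.2), against 110 to 224 RPKM in 5xFAD (median 146), the only member without overlap between these groups, beside 2.85% of all genes (-1.39 ± 0.17, adjusted p = 1.98e-06). Oas1a had 5.94 to 11.4 RPKM in 5xFAD;TREM2-/- (median 9.91), against 10.8 to 18.4 RPKM in 5xFAD (median 14.6), a change of -0.67 ± 0.14 (adjusted p = 0.00128), and all 8 knockout libraries lay below the 5xFAD mean. Oasl2 (8.31 to 15.8 RPKM in 5xFAD;TREM2-/-, against 13.6 to 30.8 RPKM in 5xFAD) and Usp18 (8.67 to 17.3 RPKM in 5xFAD;TREM2-/-, against 14.04 to 27.9 RPKM in 5xFAD) overlapped more and fell by 0.56 and 0.51. Bst2 had 116 to 192 RPKM in 5xFAD;TREM2-/-, against 152 to 233 RPKM in 5xFAD (-0.46 ± 0.10), and Zbp1 had 2.25 to 5.58 RPKM in 5xFAD;TREM2-/-, against 3.28 to 7.88 RPKM in 5xFAD (-0.45 ± 0.15). Slfn2, which restrains T-cell activation, changed by -0.67 ± 0.10 (adjusted p = 3.21e-05).

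Other effectors had changes near 0 at 8 months. Ifit3 had 10.8 to 20.9 RPKM in 5xFAD;TREM2-/- (median 18.4), against 13.2 to 28.1 RPKM in 5xFAD (median 18.1), a change of -0.15 ± 0.17 (adjusted p = 0.613). Rsad2 had 5.38 to 12.5 RPKM in 5xFAD;TREM2-/- (median 8.65), against 5.61 to 10.4 RPKM in 5xFAD (median 7.54), a change of 0.08 ± 0.15. Ifit1 (0.09 ± 0.17), Cmpk2 (0.08 ± 0.18), Oas2 (0.09 ± 0.20), Mx2 (-0.01 ± 0.12), Slfn5 (0.01 ± 0.18) and Stat2 (-0.03 ± 0.11) were as close to 0. Isg15 (-0.27 ± 0.13), Mx1 (-0.40 ± 0.16), Irf7 (-0.27 ± 0.14) and Ifitm3 (-0.19 ± 0.16) did not pass the test. Irf1 (-0.11 ± 0.06), Ifih1 (-0.09 ± 0.07), Gbp2 (0.27 ± 0.21) and Ifi30 (-0.13 ± 0.08) also did not. The difference between the members that fell and those that did not was not itself tested.

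Gbp7 was the member that rose, with 6.77 to 16.4 RPKM in 5xFAD;TREM2-/- (median 8.98), against 5.04 to 8.59 RPKM in 5xFAD (median 6.75), a change of 0.52 ± 0.13 (adjusted p = 0.00571). Its relative Gbp3 changed by 0.53 ± 0.19 and did not pass (adjusted p = 0.0559). The endothelial markers summed to 670 to 1664 RPKM in 5xFAD;TREM2-/- and 465.7 to 1374 RPKM in 5xFAD, and 3 of 8 oligodendrocyte markers were higher in 5xFAD;TREM2-/- (sums of 140 to 299 RPKM, against 107 to 202 RPKM in 5xFAD). Of the plasmacytoid dendritic cell markers, Cox6a2 was lower in 5xFAD;TREM2-/- than in 5xFAD at both ages (-1.23 ± 0.25 at 4 months and -1.63 ± 0.11 at 8 months). It had been higher in 5xFAD than in WT. Tcf4, the other marker tested, did not pass at either age (0.12 and 0.17), and Klk1 and Ccr9 were below 1 RPKM. The summed level of that list was 18.9 to 25.1 RPKM in 5xFAD;TREM2-/-, against 26.0 to 52.9 RPKM in 5xFAD at 4 months, and 30.9 to 35.1 RPKM in 5xFAD;TREM2-/-, against 52.6 to 91.5 RPKM in 5xFAD at 8 months, without overlap at either age. The part of these cell types in the member changes was not tested. Genes of the disease-associated microglial programme, of which 19 were tested, fell in 11 cases at 4 months and in all 19 at 8 months. Of all genes, 2.00% and 9.86% were lower at these ages, and 6.61% were higher at 8 months.

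**Figure D3:**
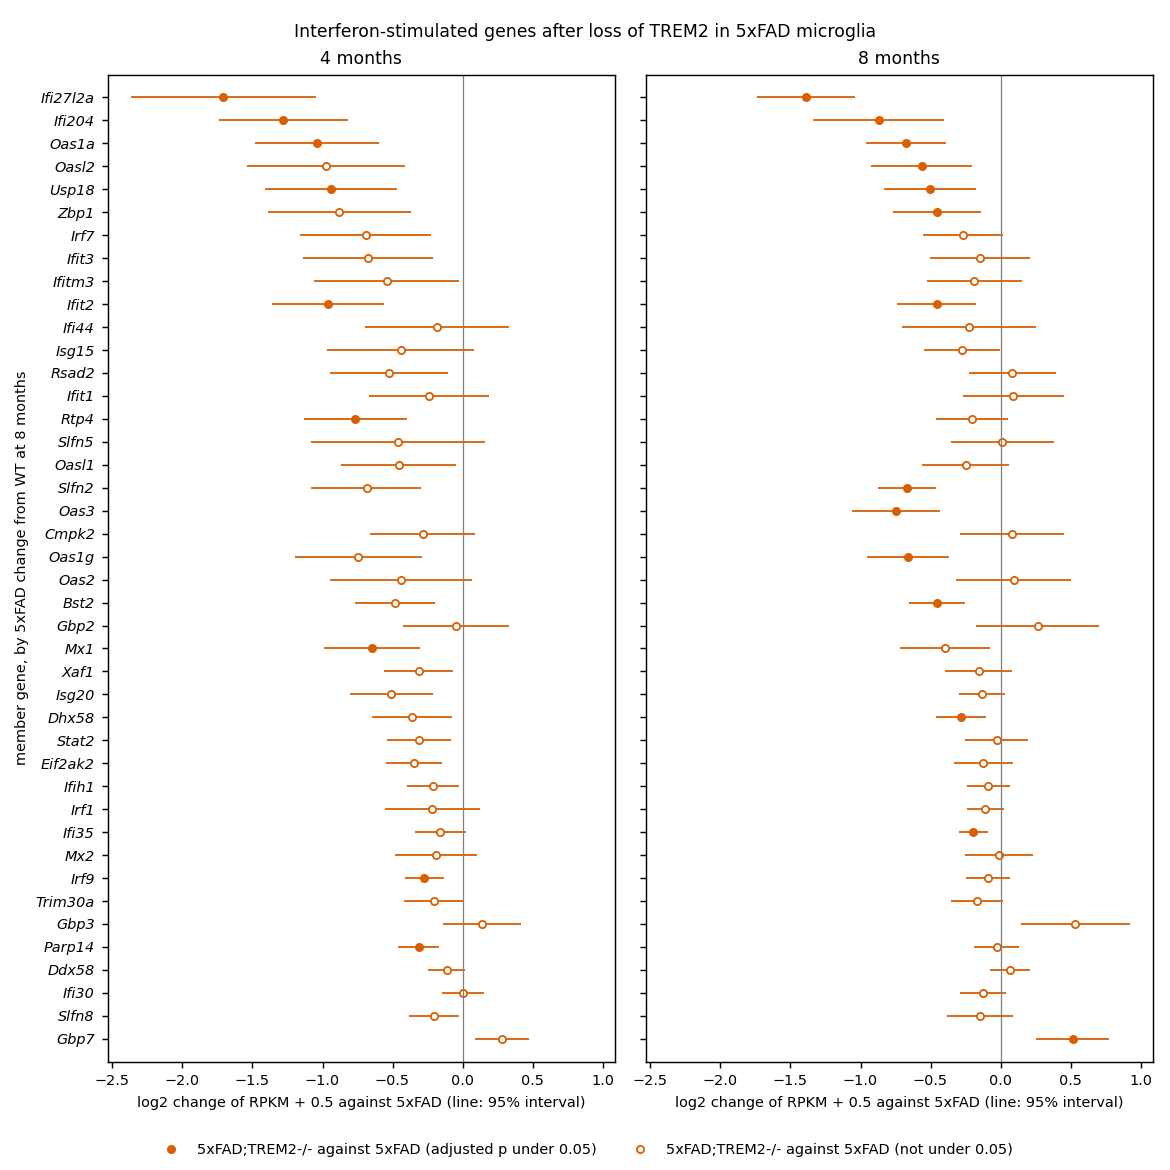
Log2 change of RPKM + 0.5 of each member in 5xFAD;TREM2-/- against 5xFAD microglia at 4 and 8 months (horizontal axis), with 95% confidence intervals as lines. Ifi27l2a is farthest below 0 at both ages (-1.71 and -1.39), Ifit3 is at -0.67 and -0.15, and Gbp7 lies above 0 (0.28 and 0.52).

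The TREM2-deficient 5xFAD microglia were also compared with WT at each age, without a test between the ages. At 4 months 0 of 41 members passed the test in either direction, beside 0.322% of all genes higher and 0.0768% lower in 5xFAD;TREM2-/- (limma); voom on the recovered reads also called 0, and 22 members had an unadjusted p under 0.05, beside 7.69% of all genes. The median change of the members was 0.40 and 38 were above 0. The largest were Ifi27l2a (0.96 ± 0.33, with 13.7, 29.5, 29.6 and 37.7 RPKM in 5xFAD;TREM2-/-, against 8.70 to 19.6 RPKM in WT), Isg15 (0.93 ± 0.27, adjusted p = 0.211), Ifit3 (0.82 ± 0.23), Slfn5 (0.79 ± 0.31), Oasl2 (0.75 ± 0.29) and Oasl1 (0.73 ± 0.21). The fit of these groups alone called 1 member. Irf1 (0.03 ± 0.17), Irf9 (0.03 ± 0.07) and Ifi30 (-0.06 ± 0.08) were nearest to 0.

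At 8 months 37 of 42 members were higher in 5xFAD;TREM2-/- than in WT microglia and 0 were lower, beside 19.5% of all genes higher and 21.2% lower (limma; voom also gave 0 lower, and 39 members had an unadjusted p under 0.05, beside 48.7% of all genes). The median change was 0.89. Ifi27l2a had 37.9 to 90.0 RPKM in 5xFAD;TREM2-/-, against 9.59 to 16.9 RPKM in WT, a change of 2.15 ± 0.19 (adjusted p = 2.34e-08). Oasl2, Ifit3, Rsad2, Ifit1 and Oas1a followed, with changes of 1.79 ± 0.20, 1.73 ± 0.20, 1.70 ± 0.17, 1.70 ± 0.20 and 1.69 ± 0.16, and no library of 1 group reached the other in any of them. Ranges were apart in 29 of the 42 members, beside 17.2% of all genes tested. Gbp7 had 6.77 to 16.4 RPKM in 5xFAD;TREM2-/-, against 8.92 to 11.02 RPKM in WT, a change of -0.05 ± 0.14, and Slfn8, Ifi30, Ddx58 and Trim30a also did not pass. All 8 endothelial markers were higher in 5xFAD;TREM2-/- than in WT, with sums of 670 to 1664 RPKM against 216 to 576 RPKM in WT. Mural markers (6 of 6, sums of 70.5 to 366.5 RPKM, against 40.3 to 75.6 RPKM in WT) and erythrocyte markers (4 of 4 tested, sums of 24.7 to 148.1 RPKM, against 14.9 to 29.0 RPKM in WT) were also higher, and microglial markers were lower for 6 of 8 genes. Cox6a2 was higher by 2.09 ± 0.13, while Tcf4, the other plasmacytoid dendritic cell marker tested, did not pass (-0.06). Sums of that list were 30.9 to 35.1 RPKM in 5xFAD;TREM2-/-, against 16.03 to 19.1 RPKM in WT. The part of these markers' cells was not tested.

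Loss of CD33 in 5xFAD mice was measured at both ages, and the share of members called was near that of all genes, so the counts are no result about the members. At 4 months 1 of 41 rose and 1 fell in 5xFAD;CD33-/- relative to 5xFAD, beside 1.90% of all genes higher and 3.00% lower, and the median change was 0.11. The all-gene calls, 638 in number, became 22 without 5xFAD;CD33-/- replicate 2 and 2343 without its replicate 4. Ifi44, a cytosolic protein induced by interferon, had 1.11, 1.13, 2.06 and 2.47 RPKM in 5xFAD;CD33-/- libraries, against 0.199 to 1.51 RPKM in 5xFAD (median 0.569), a change of 0.85 ± 0.25 (adjusted p = 0.048). Ifi30 had 109, 132, 140 and 153 RPKM in 5xFAD;CD33-/- libraries, against 142 to 175 RPKM in 5xFAD (median 159), a change of -0.26 ± 0.07 (adjusted p = 0.0464). The ranges of both genes overlapped. Neither call was stable: 0 members were called without 5xFAD replicate 4, 7, 9, 11 or 13 or 5xFAD;CD33-/- replicate 2 or 3, 1 without 5xFAD replicate 6 or 10, 4 without 5xFAD;CD33-/- replicate 1, and 7 without 5xFAD replicate 1 or 5xFAD;CD33-/- replicate 4. With no filter, with median-ratio scaling or with these groups alone, 0 were called by limma, and 7 members had an unadjusted p under 0.05 in the fit of all groups, beside 27.6% of all genes.

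The other members did not pass the test at 4 months. Slfn5 (0.73 ± 0.30), Ifitm3 (0.65 ± 0.25), Cmpk2 (0.58 ± 0.18), Gbp2 (0.47 ± 0.18) and Irf7 (0.41 ± 0.23) had the next largest changes and adjusted p between 0.0579 and 0.243. Ifi27l2a had 85.8, 102, 110 and 147 RPKM in 5xFAD;CD33-/- libraries, against 48.6 to 176 RPKM in 5xFAD, a change of 0.33 ± 0.32. Ifit3 (0.11 ± 0.22), Isg15 (0.26 ± 0.25), Oasl2 (0.30 ± 0.27), Oas1a (0.36 ± 0.21), Rsad2 (0.29 ± 0.20) and Usp18 (0.35 ± 0.23) were above 0 without passing, and Mx1 (-0.14 ± 0.17) and Irf1 (-0.16 ± 0.17) below it. Oligodendrocyte markers were higher in 5xFAD;CD33-/- for 4 of 8 genes (sums of 96.2 to 177 RPKM, against 78.3 to 130.4 RPKM in 5xFAD) and 1 of 8 endothelial markers was higher (sums of 337 to 869 RPKM, against 148 to 980 RPKM in 5xFAD), and 1 of 4 erythrocyte markers tested and 1 of 8 microglial markers were lower. Of all genes, 1.90% were higher and 3.00% lower. The part of these markers' cells in the member values was not tested.

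At 8 months 2 of 42 members rose in 5xFAD;CD33-/- relative to 5xFAD and 0 fell, beside 3.37% of all genes higher and 0.329% lower (limma; voom gave the same counts, and the prefix of the library title as a term gave 6 members). Although 39 members lay above 0, with a median change of 0.24 beside -0.02 over all genes, no member's groups were free of overlap, beside 0.0941% of all genes, and 15 had an unadjusted p under 0.05, beside 13.9% of all genes. Gbp3 had 4.56 to 9.60 RPKM in 5xFAD;CD33-/- (median 6.99), against 3.53 to 5.96 RPKM in 5xFAD (median 4.16), a change of 0.54 ± 0.12 (adjusted p = 0.0135). Ifit1 had 3.48 to 8.26 RPKM in 5xFAD;CD33-/- (median 5.06), against 2.19 to 6.17 RPKM in 5xFAD (median 3.24), a change of 0.50 ± 0.14 (adjusted p = 0.0486). Ifi44 (0.84 ± 0.25, adjusted p = 0.0627), Irf7 (0.56 ± 0.17, adjusted p = 0.0643), Slfn5 (0.54 ± 0.16) and Isg15 (0.50 ± 0.17) came next and did not pass, and Ifi30 (-0.00 ± 0.15), Parp14 (0.02 ± 0.09) and Irf9 (-0.04 ± 0.05) were nearest to 0.

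One 8-month library, 5xFAD;CD33-/- replicate 10, was the highest of its group for many members, with 392 RPKM of Ifi27l2a (group median 160), 35.8 RPKM of Irf7 (median 12.9) and 10.5 RPKM of Ifi44 (median 3.73). Gbp3 stayed past the threshold whichever library was left out. Ifit1 did not without 5xFAD;CD33-/- replicate 10 (0.44, adjusted p = 0.081) or without the library labelled 5xFAD;CD33-/- replicate 7 that had Cd33 reads (0.47, adjusted p = 0.0994). Over all 23 libraries left out in turn, the count was 1 without 5xFAD replicates 1, 2, 4, 5, 6, 7, 9 or 10 or 5xFAD;CD33-/- replicates 3, 5, 6, 7, 9, 10, 11 or 12, and 4 to 9 without 5xFAD replicates 3, 8 or 11 or 5xFAD;CD33-/- replicates 2, 4 or 8. Endothelial markers were higher in 5xFAD;CD33-/- for 7 of 8 genes, with sums of 228 to 914 RPKM (median 527), against 132 to 467 RPKM in 5xFAD (median 259), and none was at 0. Of all genes, 3.37% were higher. Whether endothelial RNA takes part in the values of Gbp3 and Ifit1 was not tested.

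**Figure D4:**
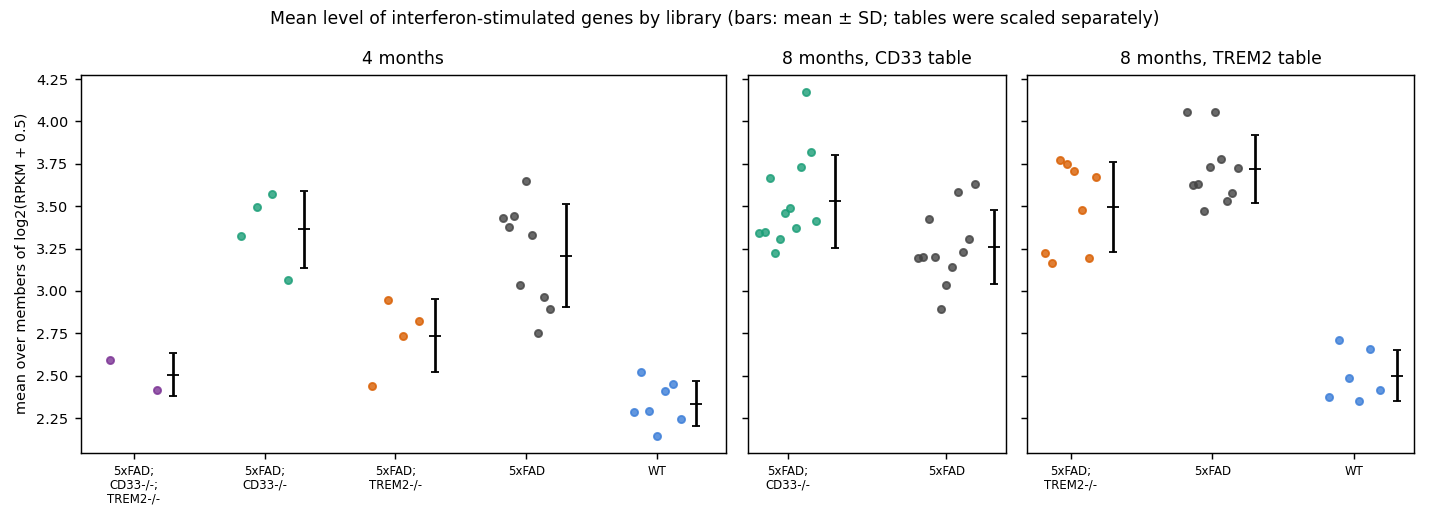
Mean log2(RPKM + 0.5) over the tested members in each library (vertical axis), by genotype and table, 1 point per library, with bars for the mean ± SD; the tables were scaled separately. At 4 months 5xFAD (2.75 to 3.65) lies above WT (2.15 to 2.52) and 5xFAD;TREM2-/- (2.44 to 2.95) overlaps both, and at 8 months 5xFAD;TREM2-/- (3.17 to 3.77) overlaps 5xFAD (3.47 to 4.06).

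The mean over members summarises these orders as a description. At 4 months it was 2.51 ± 0.13 in 5xFAD;CD33-/-;TREM2-/- libraries (SD, n = 2; 2.42 in replicate 2, without the doubted replicate 1), 3.36 ± 0.23 in 5xFAD;CD33-/- (n = 4), 2.74 ± 0.21 in 5xFAD;TREM2-/- (n = 4), 3.21 ± 0.30 in 5xFAD (n = 9) and 2.34 ± 0.13 in WT (n = 7). In the 8-month table with TREM2-/- mice it was 3.496 ± 0.265 in 5xFAD;TREM2-/- (n = 8), 3.72 ± 0.20 in 5xFAD (n = 10) and 2.50 ± 0.15 in WT (n = 6). In the other 8-month table it was 3.53 ± 0.27 in 5xFAD;CD33-/- (n = 12) and 3.26 ± 0.22 in 5xFAD (n = 11).

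Loss of TREM2 on the CD33-deficient background was measured at 4 months only, in 2 libraries. Of these, replicate 1 had Cd33 reads against its label. Neither library shared a title prefix with any 5xFAD;CD33-/- or 5xFAD;TREM2-/- library at that age. Comparisons with these groups therefore cannot separate genotype from title prefix. In the libraries labelled 5xFAD;CD33-/-;TREM2-/-, 19 of 41 members fell relative to 5xFAD;CD33-/- and 0 rose, beside 3.92% of all genes lower and 0.990% higher (limma; voom also gave 0 higher). The median change was -0.73 and 34 members had an unadjusted p under 0.05, beside 18.4% of all genes. The 19 were 7 of 17 effectors, 3 of 5 sensors, 2 of 4 transcription factors, 6 of 8 regulators and 1 of 3 Schlafen genes.

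Ifi27l2a had 15.3 and 18.8 RPKM in the libraries labelled 5xFAD;CD33-/-;TREM2-/-, against 85.8, 102, 110 and 147 RPKM in 5xFAD;CD33-/- libraries, a change of -2.65 ± 0.46 (adjusted p = 0.000771). Ifi204 had 1.91 and 2.70 RPKM in the libraries labelled 5xFAD;CD33-/-;TREM2-/-, against 7.15, 10.6, 11.03 and 12.4 RPKM in 5xFAD;CD33-/-, a change of -1.93 ± 0.32 (adjusted p = 0.000441). For Irf7 the libraries labelled 5xFAD;CD33-/-;TREM2-/- had 4.31 and 5.00 RPKM, against 9.31, 13.3, 15.98 and 16.4 RPKM in 5xFAD;CD33-/-, a change of -1.44 ± 0.33 (adjusted p = 0.00928). The groups were apart in each of these genes. With 2 libraries against 4, ranges were also apart in 34 of the 41 members, where 19 were called, and in 23.2% of all genes tested. Usp18 (-1.82 ± 0.33), Oas1a (-1.74 ± 0.31), Oasl2 (-1.56 ± 0.40), Ifit2 (-1.49 ± 0.28), Zbp1 (-1.34 ± 0.36), Ifit3 (-1.25 ± 0.32), Rsad2 (-1.11 ± 0.30), Bst2 (-0.81 ± 0.20) and Ifih1 (-0.52 ± 0.13) also fell. Isg15 (-1.03 ± 0.37), Ifitm3 (-1.17 ± 0.36), Mx1 (-0.75 ± 0.24), Irf1 (-0.22 ± 0.24) and Gbp2 (-0.59 ± 0.27) did not pass. Ifi30, Slfn8 and Gbp3 had the smallest changes (-0.06, -0.18 and -0.18).

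Of the plasmacytoid dendritic cell markers, Cox6a2 fell (-2.12 ± 0.36) and Tcf4, the other marker tested, did not pass (0.075). Klk1 was at 0 and Ccr9 below 1 RPKM in both groups. The sums of the list were 17.7 and 21.7 RPKM in the libraries labelled 5xFAD;CD33-/-;TREM2-/-, against 37.2 to 54.4 RPKM in 5xFAD;CD33-/-. The part of those cells was not tested.

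Without replicate 1, the remaining library of this genotype being assumed to vary like the other groups, 5 members stayed past the threshold: Ifi27l2a (-2.79, adjusted p = 0.0135), Ifi204 (-2.14, adjusted p = 0.00686), Ifit2 (-1.83, adjusted p = 0.00569), Oas1a (-1.78, adjusted p = 0.0191) and Usp18 (-1.68, adjusted p = 0.037). Members that no longer passed had changes of similar size, such as Ifit3 (-1.37, adjusted p = 0.0889), Oasl2 (-1.75, adjusted p = 0.0717) and Irf7 (-1.34, adjusted p = 0.1). Without replicate 2 there were 4, without 5xFAD;CD33-/- replicate 2 there were 12 and without its replicate 3 there were 9. The prefix of the library title as a term gave 5. That term cannot compare the groups within a prefix, because they shared none.

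Against 5xFAD;TREM2-/- microglia, the libraries labelled 5xFAD;CD33-/-;TREM2-/- had 0 of 41 members past the test, beside 0.0384% of all genes higher and 0.0307% lower (limma; voom also 0, and 3 members with an unadjusted p under 0.05, beside 5.77% of all genes). The median change was -0.23, and the largest were Ifi27l2a (-0.60 ± 0.46), Ifit2 (-0.56 ± 0.28), Usp18 (-0.53 ± 0.33), Dhx58 (-0.47 ± 0.20), Ifit3 (-0.46 ± 0.32) and Ifi204 (-0.43 ± 0.32). Ifitm3 (0.02), Stat2 (-0.02) and Oas2 (0.05) were nearest to 0. The test of whether the effect of TREM2 loss without CD33 differed from that with CD33 called 0 members, beside 0% of all genes higher and 0% lower (limma; voom also 0, 2 members with an unadjusted p under 0.05, beside 5.1% of all genes). The largest differences were Ifi44 (-0.98 ± 0.44), Ifi27l2a (-0.94 ± 0.56), Usp18 (-0.88 ± 0.40), Irf7 (-0.75 ± 0.40), Oas1a (-0.70 ± 0.38) and Ifi204 (-0.65 ± 0.39), each with an adjusted p of 0.91. Without the library labelled 5xFAD;CD33-/-;TREM2-/- replicate 1, 0 members were called in either test, and over all genes 17 were called against 5xFAD;TREM2-/- in place of 9, and 1 in place of 0 for the difference. With 2 libraries these intervals are wide, and a missed threshold does not show that the effects were alike.

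The genes upstream of the members were read from fixed lists of ligands, receptors and sensors. Of 12 interferon genes, Ifnb1 alone passed the filter, with at most 51, 39 and 83 reads per library in the 3 tables. Its level was 0.647 to 2.12 RPKM in 5xFAD at 8 months, against 0.0319 to 0.505 RPKM in WT, a change of 1.09 ± 0.23 (adjusted p = 0.000274), and its change at 4 months (0.57 ± 0.21) did not pass (adjusted p = 0.0701). No WT library at 8 months reached 1 RPKM of Ifnb1, so there it passed the filter only through libraries of mice that carried 5xFAD. Its values lay near that threshold. Ifng had at most 17 reads in any library. Of 18 receptor and signalling genes tested, 1 was higher and 6 were lower in 5xFAD than in WT at 4 months, beside 8.95% and 7.79% of all genes. At 8 months 4 were higher and 8 lower, beside 27.8% and 29.1% of all genes. Ifnar1 and Ifnar2 rose in 5xFAD at 8 months (0.34 ± 0.07 and 0.31 ± 0.05), whereas the interferon gamma receptor chain Ifngr1 fell at both ages (-0.43 ± 0.08 and -0.996 ± 0.096).

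Of 18 nucleic acid sensing genes outside the members, 3 were higher and 6 lower in 5xFAD than in WT at 4 months, beside 8.95% and 7.79% of all genes, and 3 were higher and 9 lower at 8 months, beside 27.8% and 29.1%. Tmem173 (STING), the adaptor of cytosolic DNA sensing, fell by 0.45 at 4 months and 1.05 at 8 months (adjusted p = 0.000819 and 1.45e-09). Of other interferon-stimulated genes from a separate list, 27 of 44 were higher in 5xFAD at 4 months, and 34 of 47 were higher and 1 lower at 8 months, with medians of 0.27 and 0.46. Lgals3bp, a secreted scavenger-receptor-domain protein, rose by 1.58 ± 0.17 and 2.25 ± 0.11, and fell in 5xFAD;TREM2-/- relative to 5xFAD by 1.08 at 4 months and 1.02 at 8 months. Cxcl10, a chemokine for T cells, rose in 5xFAD by 1.42 ± 0.20 and 2.08 ± 0.14, and in 5xFAD;TREM2-/- relative to 5xFAD it fell by 0.88 at 8 months (adjusted p = 2.76e-05) and did not pass at 4 months (-0.89 ± 0.24, adjusted p = 0.0531). In this list 4 of 44 fell in 5xFAD;TREM2-/- relative to 5xFAD at 4 months, beside 2.00% of all genes. At 8 months 10 of 47 fell and 4 rose, beside 9.86% and 6.61% of all genes. After loss of CD33 at 8 months 2 of 46 rose, beside 3.37% of all genes, so the count is no result about this list. The 2 were Ly6a (1.25 ± 0.27), which brain endothelium also expresses, and Helz2 (0.45 ± 0.12).

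**Figure D5:**
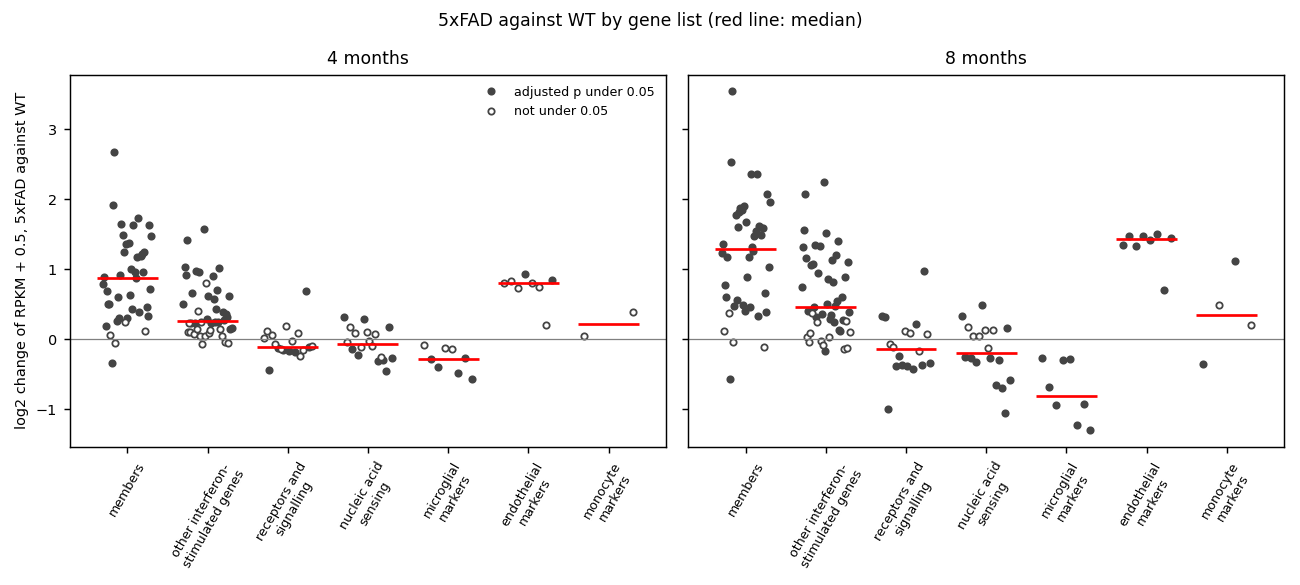
Log2 change in 5xFAD against WT at 4 and 8 months (vertical axis) for the members, other interferon-stimulated genes, receptors and signalling genes, nucleic acid sensing genes and microglial, endothelial and monocyte markers, 1 point per gene, filled where the adjusted p was under 0.05, with a red line at the list median. The members' medians are 0.88 and 1.29, the receptor and signalling medians are -0.10 and -0.14, and the endothelial medians are 0.80 and 1.43.

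The members with older names were matched by gene identifier. The row named I830012O16Rik carries the identifier of Ifit3b, and the row named AI607873 that of Ifi207; they were kept out of the counts above. I830012O16Rik had 1.31 to 2.85 RPKM in 5xFAD, against 0.487 to 1.21 RPKM in WT at 4 months, and rose by 0.99 ± 0.17 (adjusted p = 0.000182) and by 1.47 ± 0.16 at 8 months. In 5xFAD;TREM2-/- relative to 5xFAD at 8 months its change was -0.08 ± 0.15, near that of its relative Ifit3. AI607873 had 2.23 to 6.59 RPKM in 5xFAD, against 0.432 to 1.82 RPKM in WT at 4 months, and rose by 1.47 ± 0.22 and by 1.98 ± 0.21 at 8 months. It fell by 0.65 in 5xFAD;TREM2-/- at 8 months (adjusted p = 0.0209), the direction of its relative Ifi204.

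The members varied together across libraries within genotypes, as a description. Genotype means were first subtracted, so differences between genotypes do not enter. The correlation of each member with the mean of the others had a median of 0.799 over 26 libraries at 4 months. The medians were 0.794 over 23 libraries in the 8-month table with CD33-/- mice and 0.790 over 24 libraries in that with TREM2-/- mice. The lowest were Gbp7 at 4 months (-0.403), and Ifi30, at -0.269 at 4 months, 0.00 in the table with CD33-/- mice and -0.288 in that with TREM2-/- mice.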

How the data were processed

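Microglia sorted for CD11b and CD45 gave 73 RNA-seq libraries in 10 groups, from stranded mRNA kits per the labels' protocols. STAR, HTSeq, edgeR, mm10 and GRCm38 are named, without roles, in the submitters' processing notes; of their versions, the annotation and the counting's strand setting the sources used here say nothing. The authors deposited RPKM per gene with a gene length in 3 separately made tables, in which all columns were used. RPKM times length gave whole reads (within 0.05) for 100% of values, with library factors of 0.8435 to 1.0955; reads per library are the depth, and their number limits precision. Of 279 library pairs within groups, the closest differed by a chi-square of 5.261 per gene, so none was counted as a repeat.

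Genes with at least 1 RPKM in at least 2 libraries of a table were kept. limma 3.58.1 (R 4.3.3; trend and robust) was fitted to log2(RPKM + 0.5) over all groups of a table, two-sided, with Benjamini-Hochberg adjustment over all kept genes and a threshold of 0.05; fold changes on this scale understate those of low genes. The file's unit being RPKM, the count test was an alternative (limma voom on the recovered reads). Other alternatives were pseudocounts of 0.1 and 1, other filters, median-ratio scaling, the replicate number or title prefix as a term, only the groups compared, and leaving out each library. Scripts were tested on simulated data. Tables were joined in Python 3.11.15. Members and gene lists were chosen with earlier results of these data known.

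Levels by library were given, though not in every comparison, for 16 members fixed in a list (Ifi27l2a, Ifit3, Isg15, Oasl2, Oas1a, Mx1, Rsad2, Bst2, Ifitm3, Zbp1, Ifih1, Irf7, Irf1, Usp18, Gbp2 and Ifi30). In each comparison the 6 members with the largest and the 3 with the smallest absolute change could also be named. So could each called member that went against most. Some other members were named beside these. Of other lists, up to 6 genes per comparison with the smallest p could be named. Sequences come from RefSeq, GRCm38.p6. A gene of the receptor and signalling list is counted with its list but not reported here by itself.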

Additional observations from a re-analysis of the deposited data

Results flagged for a closer look

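Of 119 sets of library values of a member in a group of 4 to 10 libraries, 5 held a library that stood apart from the rest; chance gives about 1 in 20. Isg15 was 8.85 RPKM in WT replicate 2 at 4 months, with the next library at 5.99 RPKM. In WT replicate 12 at 4 months, Rsad2 was 1.73 RPKM (next 1.27 RPKM) and Irf1 was 51.0 RPKM (next 35.6 RPKM). Gbp2 was 14.04 RPKM in 5xFAD replicate 1 at 4 months (next 9.14 RPKM). Ifi30 was 231.0 RPKM in 5xFAD replicate 9 of the 8-month table with TREM2-/- mice (next 180.3 RPKM).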

How the results depend on the processing

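No direction reversed under any alternative. The members called in 5xFAD against WT numbered 35 to 37 at 4 months and 38 at 8 months whichever library was left out, and in 5xFAD;TREM2-/- against WT at 8 months 37 to 39. For 5xFAD;TREM2-/- against 5xFAD at 4 months the 9 members called became 5 with the title prefix as a term, 3 with only the groups compared and 4 to 16 without 1 library; at 8 months the 14 became 10 to 14 without 1 library, and 12 without libraries whose title has a pair of numbers, an alternative chosen after seeing the data. For 5xFAD;TREM2-/- against WT at 4 months 1 was called with only the groups compared. For 5xFAD;CD33-/- against 5xFAD at 4 months the 2 became 1 with a pseudocount of 0.1, 0 with no filter, median-ratio scaling or only the groups compared, 4 with the title prefix and 0 to 7 without 1 library; at 8 months the 2 became 1 with a pseudocount of 1, no filter or the filter by smallest group, 6 with the title prefix and 1 to 9 without 1 library. For 5xFAD;CD33-/-;TREM2-/- against 5xFAD;CD33-/- the 19 became 5 with the title prefix and 4 to 25 without 1 library. The cause of these moves was not tested. Replicate numbers did not pair the libraries: same-numbered libraries had median correlations of 0.006, -0.113 and 0.121 in the 3 tables, with lowest values of -0.499, -0.471 and -0.266. Libraries with the same title prefix had medians of 0.071, 0.348 and 0.162, and pairs with different replicate numbers 0.002, -0.028 and -0.011. With the replicate block the counts were 33 (5xFAD against WT, 4 months), 38 (8 months), 9 and 9 (5xFAD;TREM2-/- against 5xFAD, 4 and 8 months), 0 and 0 (5xFAD;CD33-/- against 5xFAD, 4 and 8 months) and 10 (5xFAD;CD33-/-;TREM2-/- against 5xFAD;CD33-/-). Counts over all genes moved most for 5xFAD;CD33-/- against 5xFAD, where 638 at 4 months became 19 with the block, 216 with no filter, 405 with median-ratio scaling, 1022 with voom, 1964 with the title prefix, 26 with only the groups compared and 22 to 2343 without 1 library, and 472 at 8 months became 25 with the block, 289 with no filter and 238 to 719 without 1 library. Elsewhere 2181 became 1306 with the block in 5xFAD against WT at 4 months, 311 became 178 with the title prefix and 148 with only the groups compared in 5xFAD;TREM2-/- against 5xFAD at 4 months, 52 became 26 with the block, 34 with the prefix and 82 with only the groups compared in 5xFAD;TREM2-/- against WT at 4 months, 639 became 379, 189 and 206 with these in 5xFAD;CD33-/-;TREM2-/- against 5xFAD;CD33-/-, 9 became 22 with no filter and 5 with the prefix in 5xFAD;CD33-/-;TREM2-/- against 5xFAD;TREM2-/-, and 0 became 4 with no filter and 1 with the prefix or only the groups compared in the test of the difference between the effects of TREM2 loss.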

Other observations

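For 12127 genes outside the members, correlation with the mean of the members was taken over the libraries of each table, with genotype means subtracted. Genes were ranked by the lowest of the 3 values, which are descriptions. Libraries of all genotypes entered, but differences between genotypes did not. Rnf213, a large ubiquitin ligase with antimicrobial roles, was first (0.846). Others among the most alike were Nlrc5, the transactivator of MHC class I genes (0.83), and the immunity-related GTPase Iigp1 (0.735). I830012O16Rik (0.784) was also among them. It carries the identifier of the listed member Ifit3b and can share reads with Ifit3, so its place is no result about genes outside the list. The median over all genes was -0.273. The MHC class I genes H2-D1 (0.697), H2-K1 (0.686) and H2-Q7 (0.685) were among the 15 most alike. Nlrc5 rose in 5xFAD relative to WT by 1.06 at 4 months and 1.62 at 8 months on the log2 scale, and H2-D1 by 1.02 and 1.65. H2-D1 fell in 5xFAD;TREM2-/- relative to 5xFAD by 0.71 at 4 months (limma, adjusted p = 0.0161) and 0.53 at 8 months (limma, adjusted p = 6.25e-05).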
